A study of Mus musculus with 13 samples.

Results

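H3K27ac peak lists of the 2 double deletion lines, H23 and H34, were compared region by region. Peaks with a −log10 p of at least 4 were kept in both lists and chromosome 14 was set aside, which left 115068 of 124609 H23 peaks and 125492 of 130473 H34 peaks. Overlapping peaks of the pair were merged into 144626 regions, against 211369 when the lists of all 12 libraries were merged the same way. Each region was shared (a peak of each line), H23-only or H34-only, so every region belongs to 1 of 3 classes.

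All cells were C2C12, a mouse myoblast line that fuses into myotubes when serum is lowered. The submitters deleted regulatory regions they call hotspots with CRISPR/Cas9. For H23, H3 was removed from cells that already lacked H2, and for H34, H3 was removed from cells that already lacked H4. Both lines thus share the H3 deletion and differ in the other hotspot removed. Both were sampled 48 h after the change to differentiation medium (DMEM with horse serum and penicillin/streptomycin). The other libraries used for reference at 48 h were wild-type cells, an H1 deletion, an H3 deletion and a Myod1 knockout, and wild-type cells at -24, 0, 6, 12, 24 and 72 h gave the time course. Whether a line was 1 clone was not given in the sources used here. The CRISPR control library was not analysed here. Each condition had 1 library, so there was no replicate error and no test between the lines, and the deletion cannot be told apart from other differences between the lines or libraries.

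H3K27ac, acetylation of lysine 27 on histone H3, lies on the nucleosomes beside active promoters and enhancers, and is laid down by the acetyltransferases p300 and CBP. In differentiating myoblasts the factor MyoD binds many enhancers and recruits these enzymes. Enhancers crowded into one acetylated stretch are called super-enhancers. Where the hotspots lie was not used here.

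The H23 list was the shorter of the pair but covered more of the genome. Its peaks covered 77.9 Mb with a median width of 369 bp, against 71.3 Mb and 332 bp in H34. Broad peaks, of 2500 bp or more, made up 4419 of the H23 peaks (3.84%) and 2762 of the H34 peaks (2.20%). The H3 and H1 lines had 2.35% and 1.90% broad peaks and medians of 326 and 312 bp. Read depth was unknown for every library, and its part in width and number was not tested.

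Shared regions were the largest class by number and held most of the acetylated bases. There were 66927 of them, 46.3% of all regions, beside 38964 H23-only regions (26.9%) and 38735 H34-only regions (26.8%). These covered 74.6, 11.4 and 10.2 Mb. The Jaccard index, shared over combined bases, was 0.551. An H34 partner was lacking for 33.9% of the H23 peaks (95% Wilson interval 33.6 to 34.1), and an H23 partner for 30.9% of the H34 peaks (30.6 to 31.1). All intervals here reflect counting error alone: nearby peaks are linked, and each library stands once. With the 115068 strongest peaks of each line there were 138285 regions, of which 46.6% were shared, 30.0% H23-only and 23.3% H34-only. The near-equal numbers of line-only regions thus became unequal, with more in H23, once the lists were of equal length. The order turned when each peak was replaced by 500 bases around its summit: the shares without a partner were then 33.7% for H23 and 37.3% for H34.

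The deposited lists themselves stopped at a −log10 p of 3.03 in H23 and 3.01 in H34, and held only 5548 and 2251 peaks under the threshold of 4. Few line-only regions could therefore meet such a peak, and "of any strength" here means within these lists. In 98.6% of the H23-only and 96.7% of the H34-only regions the other line had no peak of any strength. Peaks just above the threshold, with a −log10 p of 4 to 5, had no partner in 64.0% of cases in H23 and 60.8% in H34. Those just under it, in the deposited lists, had none in 67.8% and 62.6%.

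Shared regions were wide and line-only regions narrow. The median width was 756 bp for shared regions, 221 bp for H23-only and 210 bp for H34-only regions. Of the regions of 2500 bp or more, 5689 were shared, 34 were H23-only and 7 were H34-only. A shared region is a merger of peaks from both lists, which widens it by construction. Single peaks showed the same order. H23 peaks with a partner had a median width of 547 bp and H34 peaks with a partner one of 452 bp. By peak width, the share with a partner went from 37.2% (36.6 to 37.8) at up to 200 bp to 99.2% (98.9 to 99.4) at 2500 bp or more in H23. In H34 it went from 43.1% (42.5 to 43.6) to 99.7% (99.5 to 99.9). At each width the H34 peaks had a partner more often.

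**Figure D1:**
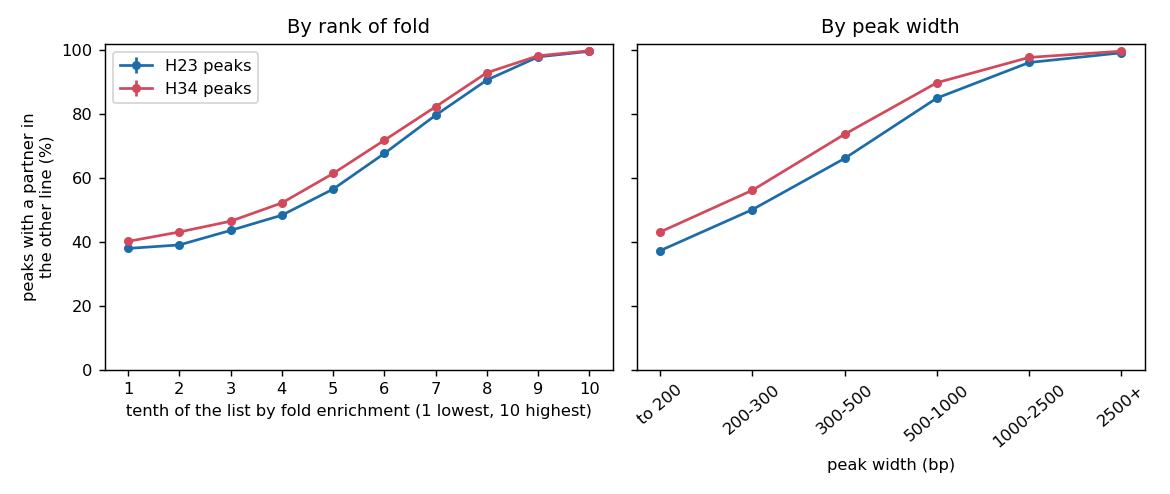
Share of peaks with an overlapping peak in the other line (vertical axis, %), by 10% steps of the list in fold enrichment (left) and by peak width in bp (right). Points are H23 (blue) and H34 (red) peaks and bars, mostly smaller than the points, are 95% Wilson intervals. Both lines climb from about 40% to nearly all peaks.

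Strength within a list separated the classes in the same way. The fold enrichment at the summit, as the authors' peak caller gave it, was turned into a percentile within its own list. Peaks with no partner had a median percentile of 25.9 in H23 and 27.2 in H34, and peaks with one had 64.3 and 64.1. In the lowest 10% of the lists 37.9% (37.1 to 38.8) of H23 peaks and 40.2% (39.2 to 41.1) of H34 peaks had a partner. In the highest 10% they were 99.7% (99.6 to 99.8) and 99.9% (99.8 to 99.9). Tied folds made these groups unequal in size. Presence and percentile come from the same lists, so these figures describe the lists and do not test them.

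Line-only peaks mostly lay close to shared ones. A shared region was found within 5 kb of 68.2% (67.8 to 68.7) of the H23-only and 67.4% (66.9 to 67.9) of the H34-only regions. No such share was computed for other regions. How much closeness the number of shared regions alone would give was not tested.

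Inside the shared regions the lines often divided the same acetylation differently. In 70.8% of them 1 H23 peak met 1 H34 peak. In 17.7% (17.4 to 18.0) 1 H23 peak spanned several H34 peaks, and the reverse occurred in 7.66% (7.46 to 7.87). In the 47384 regions with 1 peak of each line, the median width was 461 bp in H23 and 412 bp in H34, and the H23 peak was the wider in 56.0% (55.6 to 56.5). The summits lay a median of 55 bp apart, and 65.4% were within 100 bp.

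The 5 widest shared regions had a peak at all 6 times of the wild-type course and in every other 48 h library. The widest lay on chromosome 4 at 59325246 to 59355892 (mm9, as are all positions here), 30647 bp long, where 1 H23 peak spanned 6 H34 peaks. Its highest fold was 43.7 in H23 and 26.3 in H34, at percentiles 99.8 and 99.5 of their lists. The next lay on chromosome 5 at 145655698 to 145680831 with 2 H23 and 4 H34 peaks, and on chromosome 15 at 85492617 to 85517496 with 2 and 5. On chromosome 1 at 36610620 to 36631432 a single H23 peak spanned 7 H34 peaks. On chromosome 15 at 83295246 to 83315141 a single H23 peak spanned 14. H23 had the fewer peaks in all 5.

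Most shared regions ranked alike in both lines. For each line a region took the highest percentile among the peaks of that line in it. The number of peaks could differ between the lines, and its part in the differences was not tested. The percentile in H34 minus that in H23 had a median of -0.05 points, with quartiles of -9.87 and 8.74. The percentiles had a Spearman correlation of 0.77 across 66927 regions. Regions are not independent replicates, and the correlation is a description. A shift of 50 points or more was seen upward in H34 in 1263 regions (1.89%) and upward in H23 in 1383 (2.07%). Of those higher in H34, 51.2% (48.5 to 54.0) had a wild-type peak at 48 h and 59.1% (56.4 to 61.8) a peak in the H3 line. Of those higher in H23 the shares were 45.7% (43.1 to 48.3) and 63.6% (61.0 to 66.1). Both sets were below all shared regions, at 60.2% and 74.7%.

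The time course of wild-type cells asked what kind of region each class held. A region was stable when it held a peak at -24, 0, 24 and 72 h. It was late-gained when only the last pair of these times had one, and early-lost when only the first pair did. It was transient with peaks at 6 or 12 h alone, never with no peak at any of the 6 times, and mixed otherwise. Stable regions were nearly always shared: 92.7% (92.4 to 93.1) of 23737 were in both lines, 2.24% (2.06 to 2.44) in H23 alone and 5.03% (4.76 to 5.31) in H34 alone. Never regions, the other extreme, were shared in 26.4% (26.1 to 26.7) of 80605 cases. Transient, early-lost, late-gained and mixed regions lay between, with 47.3%, 63.2%, 62.2% and 61.0% shared.

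At a −log10 p of at least 4, most line-only regions had no called peak in the wild-type course, more so in H23. Regions never seen in it made up 79.9% (79.5 to 80.3) of the H23-only class, 72.9% (72.4 to 73.3) of the H34-only class and 31.8% (31.4 to 32.1) of the shared class. Stable regions made up 1.37% (1.25 to 1.49), 3.08% (2.91 to 3.26) and 32.9% (32.5 to 33.2). Mixed regions were 11.5%, 14.95% and 24.0%. Early-lost regions were 1.90%, 2.36% and 4.25%, and late-gained regions 0.78%, 1.09% and 1.79%. For transient regions the 3 classes were near each other, at 4.55%, 5.62% and 5.30%. Both orders of the line-only classes held with equal numbers of peaks. Among the 50000 strongest peaks the never shares were lower, at 52.7% in H23-only and 43.9% in H34-only regions, and the stable shares higher, at 8.06% and 13.9%. Never means no called peak, not absence of acetylation. The time course lists covered only 23.7 Mb (24 h) to 39.8 Mb (12 h), against 77.9 Mb in H23 and 71.3 Mb in H34. Their cutoffs are not given. Of the shared never regions, 26.8% had a wild-type peak at 48 h.

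**Figure D2:**
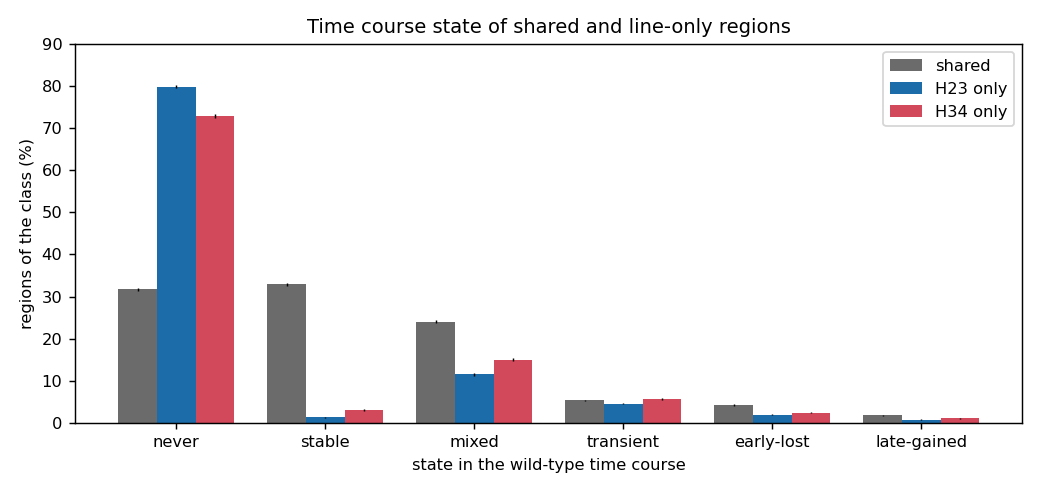
Share of shared (grey), H23-only (blue) and H34-only (red) regions in each state of the wild-type time course (vertical axis, % of the class), with 95% Wilson intervals as thin bars. Line-only bars are high for never (79.9% and 72.9%) and low for stable (1.37% and 3.08%), and the shared bars are near equal for these states (31.8% and 32.9%).

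Agreement in rank followed the same states. Among stable shared regions the Spearman correlation between the percentiles was 0.81 with quartiles of the difference at -3.30 and 5.08 points. Among never regions it was 0.43 with quartiles of -17.6 and 14.5. Their median widths were 1391 and 470 bp, so state and width moved together, and their parts in the agreement were not separated.

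Regions defined from the time course alone gave the share that each line held. Of 28036 stable regions H23 held 93.3% (93.0 to 93.6) and H34 95.1% (94.8 to 95.3). Of 3552 late-gained regions H23 held 59.8% (58.2 to 61.4) and H34 63.0% (61.3 to 64.5). Both lines held 50.5%, H23 alone 333 regions, H34 alone 444 and neither 27.7%. The wild-type library at 48 h held 53.8% (52.1 to 55.4) of them, the H3 line 57.7%, the H1 line 77.4% and the Myod1 knockout 20.6%, from lists of other lengths. The order of the double lines was not firm for late-gained regions. With a −log10 p of at least 6 each line held 54.9%, and among the 50000 strongest peaks H23 held 39.2% and H34 37.1%.

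For the 8123 early-lost regions the lines held nearly the same share, 65.7% (64.7 to 66.7) in H23 and 66.2% (65.1 to 67.2) in H34, and 55.8% were held by both. The wild-type library at 48 h held 45.0% (44.0 to 46.1), the H3 line 49.0% and the H1 line 51.9%. Both double lines thus held more of these myoblast-stage regions than the other 48 h libraries, whose lists differed in length. Against wild type and H3 this was not particular to early-lost regions. Of transient regions H23 held 43.9% and H34 44.2%, against 21.6% in wild type at 48 h and 32.7% in H3. The double lines were above both in the stable, mixed and late-gained states too. The H1 line held more stable (95.3%) and late-gained (77.4%) regions than either double line. Among the 50000 strongest peaks H23 held 48.2% and H34 42.3% of the early-lost regions, and the part of list length was not separated. The order of H23 and H34 kept its direction in 2 of 7 alternatives, and H23 was higher with equal numbers (65.7% against 64.1%). The early-lost regions held by H34 alone (843) had a wild-type peak in 34.6% (31.5 to 37.9) and an H3 line peak in 18.0% (15.6 to 20.8) of cases. Those held by H23 alone (805) had them in 27.3% (24.4 to 30.5) and 34.8% (31.6 to 38.1).

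The line-only classes differed in which other libraries shared them. A wild-type peak at 48 h was present in 14.8% (14.5 to 15.2) of H34-only and 10.9% (10.6 to 11.2) of H23-only regions. H34-only regions were also the more often occupied at every time of the course, from 9.73% against 6.20% at 72 h to 17.8% against 12.7% at 12 h. The H3 line went the other way, with a peak in 21.9% (21.5 to 22.3) of H23-only and 18.2% (17.8 to 18.6) of H34-only regions. Over all chromosomes used, the H1 line was near equal at 27.6% and 28.1%. The Myod1 knockout, with the shortest list (54084 peaks used), was at 3.53% and 3.20%. With the 54084 strongest peaks in every 48 h library its shares were 15% and 13.4%. In shared regions the wild-type, H1, H3 and Myod1 knockout shares were 60.2%, 75%, 74.7% and 41.7%. The wild-type and H3 orders held in all 5 alternatives for each. On chromosome 12 alone the H3 order was the reverse, with 14.9% (13.5 to 16.3) of H23-only and 23.4% (20.9 to 26.1) of H34-only regions. The near-equal H1 shares pooled differences in both directions. H1 peaks were in 18.4% of H23-only and 25.6% of H34-only regions on chromosome 12. On chromosomes 3, 13 and 17 they were in 40.4% (38.7 to 42.1) and 36.6% (35.5 to 37.6). Over the other 15 chromosomes they were in 27.1% (26.6 to 27.6) and 25.8% (25.3 to 26.3). No peak in any of the other 10 libraries was found for 51.6% (51.1 to 52.1) of H23-only, 48.9% (48.4 to 49.4) of H34-only and 9.23% (9.01 to 9.45) of shared regions.

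**Figure D3:**
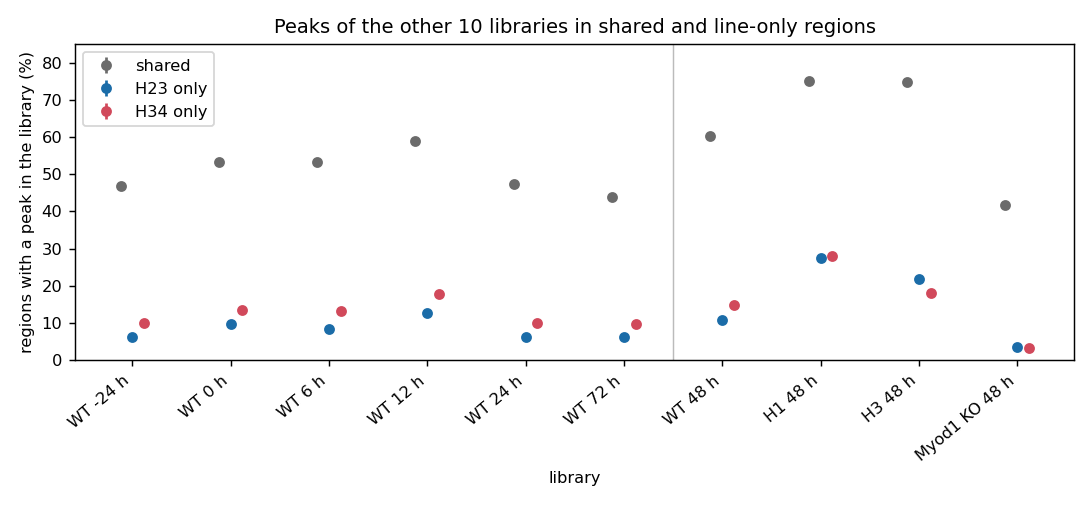
For each of the other 10 libraries, the share of shared (grey), H23-only (blue) and H34-only (red) regions it overlapped (vertical axis, %). The time course stands left of the line and the 48 h libraries right of it. Intervals are smaller than the points. Red lies above blue in every wild-type library and below it in H3, where the values are 18.2% and 21.9%.

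The difference between the line-only classes was largest for wide regions. At up to 200 bp, never regions made up 84.2% (83.7 to 84.8) of H23-only and 79.95% (79.4 to 80.5) of H34-only regions. Above 500 and up to 1000 bp they were 70.2% (68.6 to 71.7) and 49.5% (47.5 to 51.4), and above 1000 bp 58.9% (55.2 to 62.5) of 694 and 29.8% (25.1 to 34.9) of 336. A wild-type peak at 48 h was present in 33.6% (30.2 to 37.2) and 63.1% (57.8 to 68.1) of the regions above 1000 bp. For the H3 line the 2 classes were near each other there, at 47.0% (43.3 to 50.7) and 48.2% (42.9 to 53.5). H3 line peaks were more frequent in the H23-only class at each narrower width.

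Strong peaks missing from the other line were few. Among the 20% of peaks with the highest fold, 266 H23 peaks (1.15%) and 218 H34 peaks (0.867%) had no partner of any strength. Most of the H34 ones were present in wild-type cells: 68.8% (62.4 to 74.6) had a wild-type peak at 48 h and 27.98% (22.4 to 34.3) were stable. Of the H23 ones 38.3% (32.7 to 44.3) had a wild-type peak, 13.5% (9.94 to 18.2) were stable and 48.5% (42.6 to 54.5) were never seen in the course. A Myod1 knockout peak was present in 30.1% (24.9 to 35.8) of the H23 and 16.1% (11.8 to 21.5) of the H34 ones. Of the 266, 12.8% (9.29 to 17.3) lay on chromosome 7 and 12.4% (8.97 to 16.9) on chromosome 11, which held 6.77% and 9.21% of all H23 peaks of that strength. A single stretch of chromosome 7 (46847434 to 46997349) held 94 H23 peaks of all strengths and no H34 peak. Its part in the chromosome 7 share and in the never share was not separated. Of the 218, 12.8% (9.04 to 17.9) lay on chromosome 3 and 10.1% (6.76 to 14.8) on chromosome 13, which held 5.54% and 3.84% of all such H34 peaks.

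The widest and the strongest line-only regions with no peak of any strength in the other line were named by a rule. In H34 the widest was also the strongest. It lay on chromosome 3 at 106588277 to 106593522, 5246 bp long, with a fold of 21.1 at percentile 98.2. It had a peak in 9 of the other 10 libraries and lacked one in the Myod1 knockout and in H23. Nearby on chromosome 3, the regions at 106632276 to 106635089 and 106586586 to 106588187 had the same pattern, so 3 of the named H34-only regions fell within one neighbourhood. Regions on chromosome 10 (129229383 to 129233289) and chromosome 6 (128370802 to 128372051) also lacked a peak in H23 and the Myod1 knockout alone. The region on chromosome 2 at 10933488 to 10936547 had a peak in every wild-type library and in no edited line but H34. The region on chromosome 13 at 70898542 to 70901509 had a peak in wild-type cells at 24 and 48 h and in H1. The region on chromosome 8 at 80247219 to 80248528 had a peak in 5 of the 10 others.

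Of the named H23-only regions some were present in all 10 other libraries and absent in H34 alone. These were the widest, on chromosome 8 at 11261350 to 11266120 (4771 bp, fold 11.7), another on that chromosome at 95357242 to 95359173, and 1 each on chromosome 7 (75420868 to 75424886) and chromosome 15 (40485729 to 40488075). The others were in fewer libraries. The strongest H23-only region, on chromosome 7 at 46923690 to 46925154, had a fold of 27.9 and a peak in the H1 and H3 lines alone, as had its neighbour at 46925580 to 46927492. The region on chromosome 5 at 116586005 to 116587132, with a fold of 23.1 at percentile 94.9, had no peak in any other library. The region on chromosome 2 at 72846177 to 72850192 had one in wild-type cells at 48 h and the Myod1 knockout. The region on chromosome 8 at 95392461 to 95397178 had a peak in 6 others, and that on chromosome 11 (90936981 to 90940966) in 5.

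The balance of the line-only classes differed between chromosomes. Over 15 chromosomes the ratio of H34-only to H23-only regions stayed between 0.571 and 1.30. It was 3.03 on chromosome 13 (2697 against 890), 2.66 on chromosome 17 (2455 against 923) and 2.60 on chromosome 3 (3350 against 1288). On chromosome 12 it was 0.417 (1038 against 2489). On chromosome 14, which had been set aside, it was 0.163 (345 against 2117). Chromosomes 3, 13 and 17 together held 21.9% of the H34-only regions, 7.96% of the H23-only and 13.7% of the shared regions. These chromosomes were picked after their values were seen.

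Within the shared regions the ranks moved the same way. The median percentile difference, H34 minus H23, was 7.11 points on chromosome 13, 5.44 on chromosome 3 and 4.98 on chromosome 17. It was -5.50 on chromosome 12 and between -1.73 and 1.04 on the other 15. Chromosomes 3, 13 and 17 held 26.4% (24.1 to 28.9) of the shared regions that ranked 50 points or more higher in H34 and 7.30% (6.05 to 8.80) of those that ranked so in H23.

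**Figure D4:**
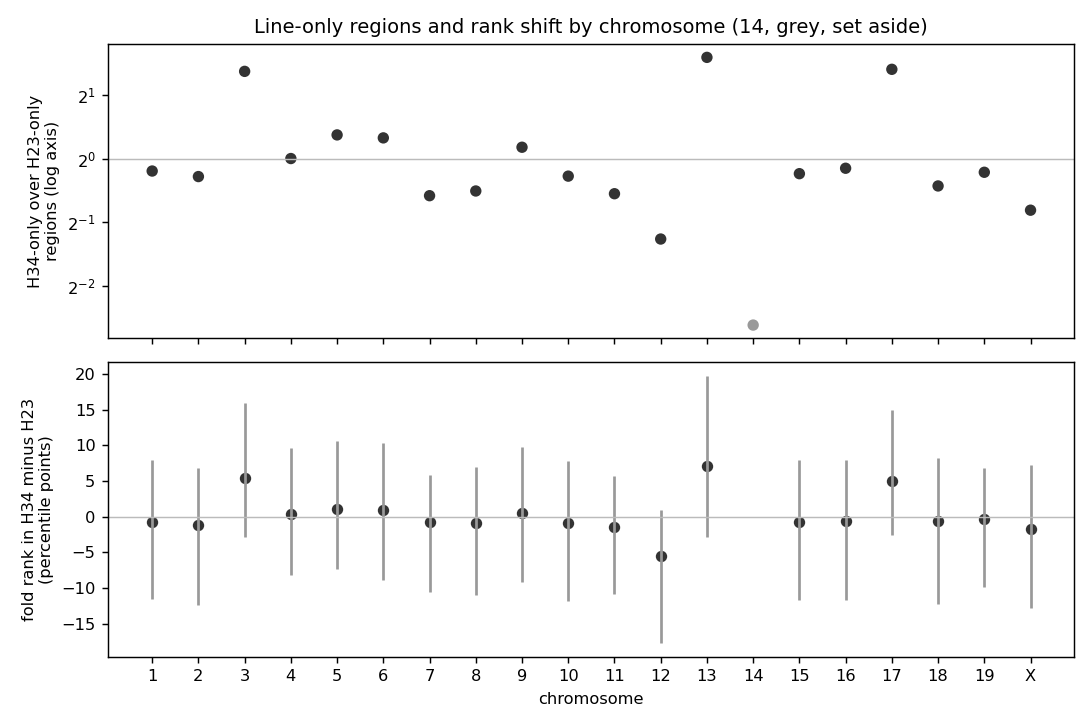
Ratio of H34-only to H23-only regions (top, log axis) and fold percentile in H34 minus H23 over shared regions (bottom, points are medians and bars quartiles) by chromosome. Chromosome 14 (grey) was set aside and has no lower value. Chromosomes 3, 13 and 17 stand above the others in both panels and chromosome 12 below.

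The other libraries show which line stood apart. Chromosome 13 held 2.90% of the bases under H23 peaks, below all 10 other libraries (3.64% to 5.09%), and 4.23% in H34. Chromosome 17 held 3.76% in H23, again below all 10 (4.46% to 5.71%), and 5.05% in H34. For chromosome 14 H34 was low, at 1.66% against 2.52% to 3.66%, and H23 had 2.97%. On chromosome 3 both lines were within the range of the others (4.01% to 7.24%), at 4.34% in H23 and 5.99% in H34. Only 1 of the 10 others, the Myod1 knockout (4.01%), was below H23 there, and 9 were below H34. On chromosome 12 both lines were within the range as well (2.99% to 4.63%), at 4.37% and 3.29%. There 9 of the 10 others were below H23, with the Myod1 knockout (4.63%) above it, and 2 were below H34. H23 was above all 10 others on chromosomes 7, 18 and X, and H34 was below all 10 on chromosome 8, at 4.63% against 4.803% to 5.498%. Chromosome number was not measured, and its part in these shares was not tested.

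In 10 Mb segments, the ratio of H34 to H23 peaks ran from 1.22 to 1.60 on chromosome 17, where H34 had more in 10 of 10 segments, and from 1.07 to 1.91 on chromosome 13. On chromosome 3 it ran from 0.890 to 1.71, with more H34 peaks in 15 of 16 segments. On chromosome 14 it was 0.524 to 0.893, with more H23 peaks in 13 of 13, and on chromosome 12 it was 0.667 to 1.26, with more H23 peaks in 11 of 13. The H34 list was the longer, and it also had more in 12 of 13 segments of chromosome 9 (ratios of 1.00 to 1.23), 14 of 16 of chromosome 5 and 14 of 19 of chromosome 2. Single segments reached higher ratios elsewhere, 2.76 on chromosome 1 and 2.00 on chromosome 5. Ratios are for segments with at least 25 peaks in each line. The lowest ratio was 0.175, in a segment of chromosome 7.

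Without these chromosomes the never, wild-type and H3 contrasts between the line-only classes kept their direction, and the small H1 contrast turned. Over the other 15, never regions made up 80.3% (79.9 to 80.8) of H23-only and 73.1% (72.6 to 73.6) of H34-only regions. Wild-type peaks were present in 10.3% (9.95 to 10.6) and 13.6% (13.2 to 14.01), and H3 line peaks in 21.7% (21.2 to 22.1) and 16.99% (16.6 to 17.4). H1 line peaks were in 27.6% and 28.1% over all chromosomes used. Over these 15 they were in 27.1% (26.6 to 27.6) and 25.8% (25.3 to 26.3). The shares of peaks without a partner there were 34.9% in H23 and 28.7% in H34.

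Peaks were joined into domains across gaps of the length customary for super-enhancers, with promoters left in. H23 had 21483 domains and H34 21758. Large domains, above the point of slope 1 when summed width times fold was plotted against rank, numbered 1119 in H23 and 1075 in H34. Of the large H23 domains 72.3% (69.6 to 74.8) overlapped a large H34 domain, and 75.3% (72.7 to 77.8) the other way. Nearly all the rest held at least 1 peak of the other line: 3 large H23 domains held no H34 peak, and 1 large H34 domain held no H23 peak. That is a low bar, because the median width of large domains was 59.9 kb in H23 and 60.2 kb in H34. Which line had the larger share of its large domains shared depended on the setting. With equal numbers of peaks the shares were 70.7% in H23 and 76.1% in H34. The order turned with peaks joined within 5 kb (72.8% and 64.7%) and with ranking by width alone (82.9% and 62.6%). Of the 265 large domains of H34 with no large H23 counterpart, 37.7% (32.1 to 43.7) lay on chromosomes 3, 13 and 17. Of the 310 such domains of H23 it was 2.58% (1.31 to 5.01), and of the shared large H23 domains 8.16% (6.46 to 10.2). A large wild-type domain overlapped 75 of these 265 H34 domains (28.3%, 23.2 to 34.01) and 62 of the 310 H23 domains.

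Over 23425 domains joined from both lines, H23 covered more bases in 12522 and H34 in 10889. The excess was 10 kb or more in 201 domains for H23, whose peaks covered more in total (77.9 against 71.3 Mb), and in 84 for H34. The largest excess in H23 was on chromosome 7 at 46847434 to 46997349, a stretch of 149.9 kb that includes the strongest H23-only region. H23 had 94 peaks over 64.4 kb there and H34 had none of any strength. The H3 line had 87 peaks over 65.9 kb, the H1 line 9 over 1.85 kb, and the wild-type libraries at all 7 times and the Myod1 knockout none. The stretch thus held many peaks in H23 and H3, few in H1 and none in the other libraries.

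The next 4 domains with an excess in H23 were acetylated in H34 too. The domain on chromosome 15 at 52665844 to 53108007 had 209.1 kb in H23, 147.3 in H34, 150.8 in H3, 120.7 in H1 and 63.4 kb in wild-type cells at 48 h. The domain on chromosome 8 at 46657353 to 46849408 had 103.9 kb in H23, 42.3 in H34, 44.5 in H3 and 31.1 kb in wild-type cells. On chromosome 18 at 32852703 to 33003005 the values were 73.5, 23.9, 47.5 and 16.0 kb in the same order. On chromosome 7 at 79616648 to 79878306 they were 86.3, 38.6, 34.9 and 25.2 kb. The H3 line, with the longer list (98404 peaks used against 68875), stood above the wild-type library in all 5.

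The largest excess in H34 was on chromosome 13 at 70775389 to 70980426, with 93.3 kb in H34 and 11.9 kb in H23. Wild-type cells at 48 h had 65.2 kb there, H1 69.5 and H3 35.3, so H23 was the lowest of the 6 libraries at 48 h, the Myod1 knockout (12.8 kb) included. The domain on chromosome 1 at 71891515 to 72080592 had 74.7 kb in H34, 26.7 in H23 and 24.5 kb in wild-type cells. On chromosome 2 at 117605179 to 117744523 the values were 61.9, 17.5 and 39.0 kb. On chromosome 17 at 80094345 to 80240840 they were 78.6, 36.6 and 19.2 kb, and on chromosome 13 at 49544639 to 49749149 they were 67.9, 28.7 and 31.3 kb. In this last domain the H1 line had more than either, 100.1 kb. All 5 held peaks at every time of the wild-type course, as did the 4 domains with an excess in H23 other than the first. In the same order as these 5 domains the H3 line had 35.3, 12.3, 16.4, 31.8 and 30.6 kb, below the wild-type library in all but the one on chromosome 17.

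**Figure D5:**
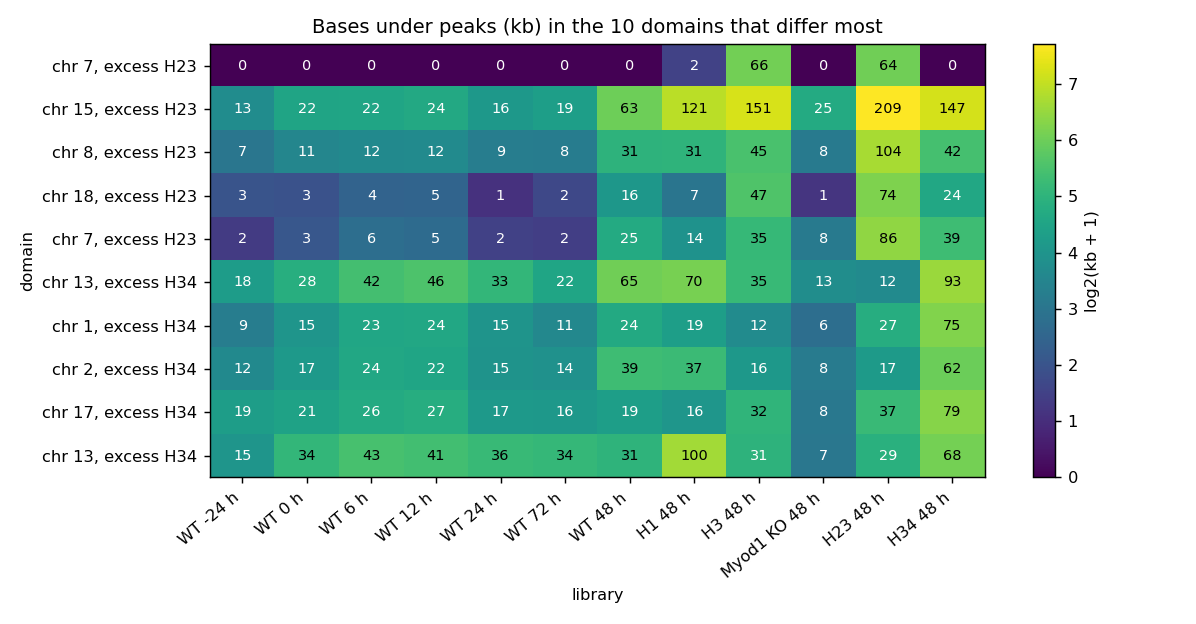
Bases under peaks (kb, printed in each cell and coloured as log2(kb + 1)) in the 5 domains with the largest excess in H23 (top) and in H34 (bottom), by library. Rows are named by chromosome in the order of the excess. The first row is at 0 in all wild-type libraries and in H34, and at 66 and 64 kb in H3 and H23.

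Regions present in the other hotspot lines and missing from 1 double line were also listed. Of 44137 regions with a peak in H1, H3 and H23, 2957 (6.70%) had no H34 peak of any strength. Of 45743 regions with a peak in H1, H3 and H34, 2314 (5.06%) had no H23 peak of any strength. Among stable regions the shares were 0.575% (0.480 to 0.689) for H34 and 1.12% (0.990 to 1.28) for H23, and among never regions 20.5% (19.6 to 21.4) and 13.97% (13.2 to 14.7). H34 also lacked the larger share of mixed (7.12% against 5.34%), transient (10.6% against 8.11%) and early-lost regions (5.29% against 3.39%). Late-gained regions were near equal, at 9.61% (7.92 to 11.6) for H34 and 8.98% (7.36 to 10.9) for H23. Stable regions alone of the 6 states had the larger share lacking in H23. Peaks under the threshold of 4 counted as present here, and H23 had more of them (5548 against 2251). Their part in these shares was not tested. The longest runs of such regions were picked after the data were seen. H34 lacked 12 in a row on chromosome 6 at 5573429 to 5927382. H23 lacked 16 in a row on chromosome 12 at 88887037 to 88993073 and further runs of 9 (89107739 to 89134283) and 10 (89142975 to 89238883). These spans were not all empty in H23, which had 1 peak in the span of 16 and 1 in that of 9. In the spans of 16, 9 and 10, wild-type cells at 48 h had 6, 11 and 5 peaks and H1 had 27, 24 and 12.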

How the data were processed

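H3K27ac ChIP-seq peak lists of 12 single C2C12 libraries were used. The submitters' processing notes name MACS2 2.1.0 and mm9. Aligner, cutoffs, input and depth are not given in the sources used here. The lists the authors deposited for 48 h held, per peak, a score (column 5), the fold enrichment at the summit (column 7), −log10 p and −log10 q values (columns 8 and 9) and a summit position. The lists they deposited for the time course held a score of no stated unit (column 5), used in 1 alternative only. These values are the authors' own and were used only within a list, to filter and rank peaks and domains.

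Peaks overlapped when they shared 1 base. Shares carry 95% Wilson intervals. Members, classes and alternatives were chosen with earlier results of these data known. The text names the 5 widest shared regions, the 5 widest and the 5 strongest (highest −log10 p) line-only regions with no peak of any strength in the other line, and the 5 joined domains with the largest excess of covered bases in each direction. No mm9 annotation was used, so no gene was named and the planned marker lists were not run. Overlap code was tested on 20000 simulated regions, and the class and state of all 20000 were recovered. The software was pandas 2.3.3 with numpy 2.4.6 under Python 3.11.15, and matplotlib 3.10.9 for plots.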

Additional observations from a re-analysis of the deposited data

How the results depend on the processing

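Over 31 results 158 alternatives were computed. A share or median was taken as moved outside its 95% counting interval, a number of regions when it changed by over 1.5 times, and the Jaccard index when it changed by 0.0005 or more. By this measure 81 of 120 alternatives moved for the chief results and 30 of 38 for details. The never share in H23-only and H34-only regions cannot change with the states taken from 0 and 72 h or from -24, 0, 48 and 72 h. Shares cannot change sign. Beyond what each setting changes by construction, the cause was not tested. No paired analysis was possible because each condition had 1 library, and for the same reason no library could be left out. Depth was unknown, so what it did to weak peaks was not tested.

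Values are given for H23 first and H34 second. With the 115068 strongest peaks by −log10 p, peaks without a partner were 36.1% and 28.1%, the Jaccard index 0.552, and median widths 779 bp (shared), 224 and 218 bp (line-only). The never shares were 79.0% and 71.4%, line-only regions with a wild-type peak 11.6% and 16.1% and with an H3 line peak 22.96% and 19.5%. H34 held 60.6% of late-gained and 64.1% of early-lost regions, and the median percentile of its peaks without a partner was 25.5. With the 54084 strongest peaks in every 48 h library, wild-type peaks were in 25.5% and 33.0% and H3 peaks in 31.6% and 26.2%. With a −log10 p of at least 6, 26.6% of H34 peaks had no partner, H34-only regions numbered 25298, the Jaccard index was 0.562, median widths were 889, 271 and 252 bp and median percentiles 27.7 and 22.9. Never shares were then 74.3% and 66.1%, wild-type peaks in 14.3% and 19.9%, H3 peaks in 22.8% and 19.5%, late-gained 54.9% in each and early-lost 61.7% and 60.0%.

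An overlap of 50% of the shorter peak gave 37.0% and 34.1% without a partner. Summit windows of 500 bases gave 37.3% for H34 and a Jaccard index of 0.319. With chromosome 14 kept, the shares were 34.6% and 30.5% and the index 0.547. States from 0 and 72 h gave 48.8% and 49.99% of late-gained and 61.7% and 61.5% of early-lost regions, and states from -24, 0, 48 and 72 h gave 72.7% and 73.4%, and 53.5% and 53.7%. With time course peaks of a score of at least 5, the H34-only never share was 73.3%. Joining within 5 kb lowered the share of large H34 domains shared to 64.7%, below the 72.8% of H23. Ranking by width alone gave 82.9% of H23 and 62.6% of H34 domains, so the order turned in both settings.

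The remaining settings were chosen after seeing the data. Equal numbers by fold gave 36.2% and 28.3% without a partner. The 50000 strongest peaks gave 28.2% and 18.6%, with 33651 shared, 14088 H23-only and 9279 H34-only regions. Never shares were 52.7% and 43.9%, wild-type peaks in 37.0% and 46.0%, H3 peaks in 59.0% and 54.4%, late-gained 39.2% and 37.1% and early-lost 48.2% and 42.3%. With chromosomes 3, 12, 13, 14 and 17 set aside, 34.9% and 28.7% had no partner, wild-type peaks were in 10.3% and 13.6%, H3 peaks in 16.99% of H34-only regions, and the H23-only never share was 80.3%. H23 then held 61.5% of late-gained and 67.2% of early-lost regions.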

Other observations

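Among regions never seen in the wild-type time course, those shared by the 2 double lines were often in the H3 line as well: 52.5% (95% Wilson interval 51.8 to 53.2) of 21253 had an H3 line peak, 46.6% (46.0 to 47.3) an H1 line peak and 26.8% (26.2 to 27.4) a wild-type peak at 48 h. The Myod1 knockout had a peak in 11.2% (10.7 to 11.6) of them. The H1 list was the longer of the single deletion lists (124479 peaks used, against 98404 for H3), and the parts of list length and line were not separated. In shared stable regions the order was reversed, with H1 at 98.0% and H3 at 95.1%.

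Stable regions held by neither double line numbered 907 of 28036. Of these, 45.4% (42.2 to 48.7) had a peak in the H1 line, 32.5% (29.6 to 35.6) in the wild-type library at 48 h and 7.61% (6.06 to 9.52) in the H3 line. The Myod1 knockout was lower still, at 4.74%. Over all 28036 stable regions the shares were 95.3% in H1, 89.2% in wild type, 89.5% in H3 and 75.3% in the Myod1 knockout.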
